A study of Homo sapiens with 60 samples.

Results

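The SLC16 genes encode the monocarboxylate transporter family of plasma membrane carriers, and 10 of them were followed here in HepG2, a human liver cancer cell line that keeps many functions of hepatocytes. The members were taken by name (SLC16A1, SLC16A3, SLC16A4, SLC16A5, SLC16A6, SLC16A7, SLC16A9, SLC16A10, SLC16A13 and SLC16A14), 10 of the 60675 genes in the count table. The basis for this choice within the family is not stated. The rule goes by gene name, but the family was selected on its measured levels over the extracts, doses and vehicle, known from earlier results of these data. The tests below therefore describe the members and are not independent evidence about them.

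Cells received an extract or vehicle for 24 h before messenger RNA was sequenced. The water extracts of single plants were Aconiti Lateralis Radix Preparata, from aconite root, Bupleuri Radix, Cimicifugae Rhizoma, and Citri Unshius Pericarpium, from mandarin peel. Yijung-tang and Banhasasim-tang are mixtures of plants. These 6 extracts were each tested at doses of 20, 100 and 500 µg/mL in triplicate libraries (n = 3), and 3 libraries received 0.1% DMSO as vehicle. A further mixture, Bojungikgi-tang, had 1 library at each dose, which brings the number of libraries to 60. The series text says that libraries with little RNA were excluded. It names a higher DMSO percentage than the sample labels, and the labels' value is the one given here. All groups are 1 cell line. Whether the 3 libraries of a group came from separate cultures is not in the labels, and the spread behind each p-value is that between libraries, possibly technical.

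Expected counts summed to between 17598646 and 30451640 per library. The 8 HepG2 markers, ALB and AFP among them, summed to 34140 to 41870 CPM (a gene's counts scaled to library size) in every library. Of 3 leukocyte markers, PTPRC had 0 or 1 count in every library but vehicle replicate 2, which had 152, and CD3E likewise had 0 or 1 against 120 in that library, while LYZ lay between 987 and 2995 CPM. Vehicle replicate 2 thus stood apart, and comparisons with vehicle are given with and without it. Endothelial markers summed to at most 6.72 CPM, fibroblast markers to at most 0.263 CPM and muscle or neuron markers to at most 0.406 CPM. Every title names BatchB, vehicle included. Libraries whose sample numbers in the titles begin with the same prefix are called a set here, and what the prefix stands for is not stated. Citri and Cimicifugae share a prefix, as do Bupleuri and Aconiti, and Yijung-tang and Banhasasim-tang. The vehicle libraries have a prefix of their own, as do those of Bojungikgi-tang. Set and treatment therefore cannot be told apart in any comparison with vehicle. Doses of 1 extract share a set, and 500 against 20 µg/mL is therefore the comparison described first.

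As background, members of the family move small organic acids and related molecules across the cell surface. SLC16A1, SLC16A3 and SLC16A7 carry lactate, pyruvate and ketone bodies together with protons and need a partner protein, basigin (BSG) or embigin (EMB), to reach the membrane. Lactate from glycolysis leaves many cells through SLC16A3, whereas liver takes up and releases these acids mainly through SLC16A1. SLC16A10 is a carrier of aromatic amino acids that also moves thyroid hormone, SLC16A9 has been linked to carnitine, SLC16A6 to the release of ketone bodies from liver, and SLC16A5 to drug transport. SLC16A13 is a liver-expressed member near a diabetes risk locus, and the cargo of SLC16A4 and SLC16A14 is less well defined.

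At 500 against 20 µg/mL the members did not move as a block. SLC16A6 rose with Aconiti, Cimicifugae and Banhasasim-tang, SLC16A4 and SLC16A5 rose with Cimicifugae and Aconiti, and SLC16A10 fell with Cimicifugae, Bupleuri and Aconiti. SLC16A13 fell with Bupleuri, Aconiti and Banhasasim-tang, and SLC16A7 with Cimicifugae. SLC16A4 also rose with Bupleuri and fell with Yijung-tang. These SLC16A4 calls, those of SLC16A10 with Bupleuri, SLC16A13 with Aconiti and SLC16A3 with Banhasasim-tang were lost when single libraries were left out, as given below for each gene. The abundant lactate carriers SLC16A1 and SLC16A3 rose with Banhasasim-tang by 0.16 and 0.23 on the log2 scale. SLC16A3 lay at the threshold with Cimicifugae (-0.14, adjusted p = 0.0548) and Aconiti (0.15, adjusted p = 0.0523), where the test chosen decides the call. With Citri no member passed.

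Of the 8 members tested, 0 passed with Citri, where 1.65% of all 16093 genes tested did. With Cimicifugae 3 rose and 2 fell, while 39.2% of all genes passed (19.5% higher and 19.7% lower). With Bupleuri 1 rose and 2 fell, beside 18.8% of all genes (9.9% higher, 8.89% lower), and with Aconiti 3 rose and 2 fell, beside 37.2% (19.2% higher, 18.1% lower). With Yijung-tang 1 fell, beside 3.77% of all genes (1.65% higher, 2.12% lower), and with Banhasasim-tang 3 rose and 1 fell, beside 15.1% (8.59% higher, 6.52% lower). These shares set the scale for the counts, and nothing particular to the family is read from them. The share of all genes whose libraries did not overlap between groups was not counted. Where groups are said below not to overlap, that describes the libraries and adds no support to the test. The median log2 fold change of the 8 members lay between -0.09 with Cimicifugae and 0.20 with Banhasasim-tang, beside medians of 0.00 over all genes tested in each of the 6 comparisons. The scaling between libraries holds the medians over all genes near 0, so they are not a measured result. A gene passed at a Benjamini-Hochberg adjusted p under 0.05, over all genes tested, in edgeR's quasi-likelihood test with 3 libraries per group.

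**Figure D1:**
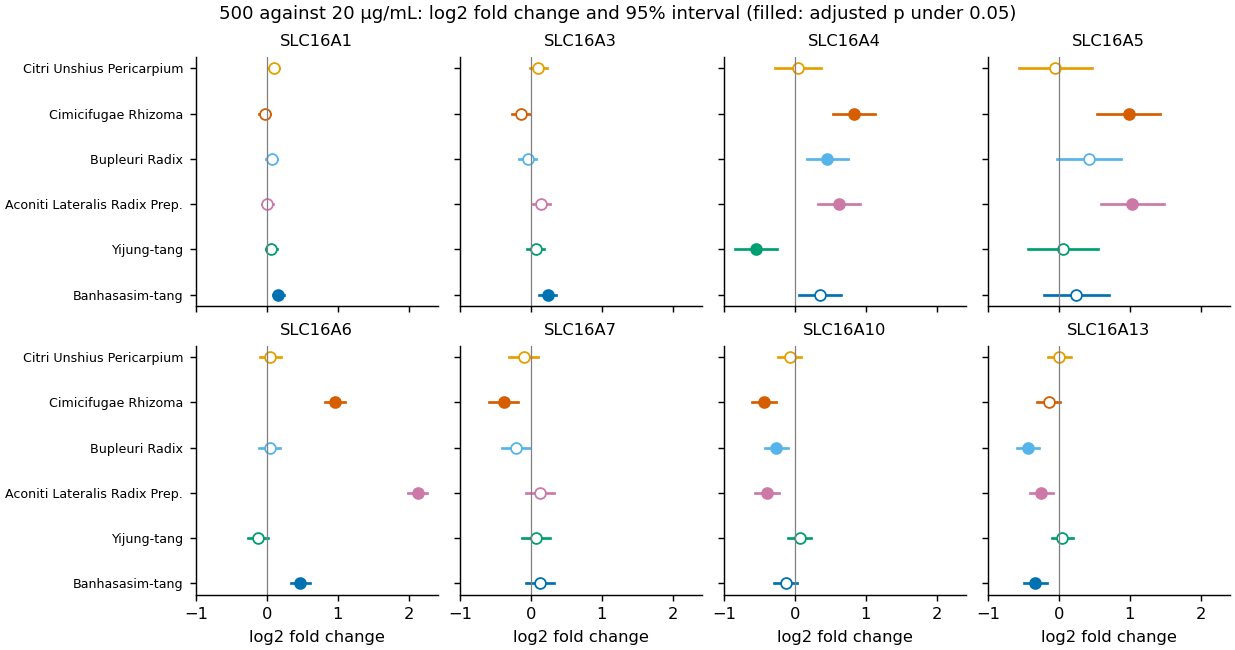
Log2 fold change of the 8 tested members (1 panel each) at 500 against 20 µg/mL for 6 extracts, with 95% intervals; filled points have an adjusted p under 0.05. SLC16A6 with Aconiti stands at 2.13, the farthest point to the right, and every Citri point is open.

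The members spanned a wide range of levels. Per kilobase of the longest transcript, SLC16A3 was the highest at a median of 85.1 CPM per kb over the 60 libraries, followed by SLC16A1 at 42.4 and SLC16A13 at 14.5. SLC16A6 had a median of 5.34 CPM per kb, SLC16A10 1.77, SLC16A4 1.06, SLC16A7 0.714 and SLC16A5 0.534. The ranges over libraries of SLC16A3 and SLC16A1 do not meet even before scaling by length, at 341 to 524 CPM against 174 to 206 CPM. The middle of this order depends on the transcript length used: scaled by the median length of each gene's transcripts, vehicle levels were 424 CPM per kb for SLC16A3, 179 for SLC16A1, 18.8 for SLC16A10, 15.3 for SLC16A13, 11.6 for SLC16A7 and 9.10 for SLC16A6. SLC16A9 and SLC16A14 had at most 9 and 6 counts in any library and were too low to test. SLC16A8 and SLC16A12, outside the list, were as low, with at most 7 and 2 counts, and SLC16A11 (1 to 13 counts) was tested and passed in none of the 6 comparisons of doses.

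**Figure D2:**
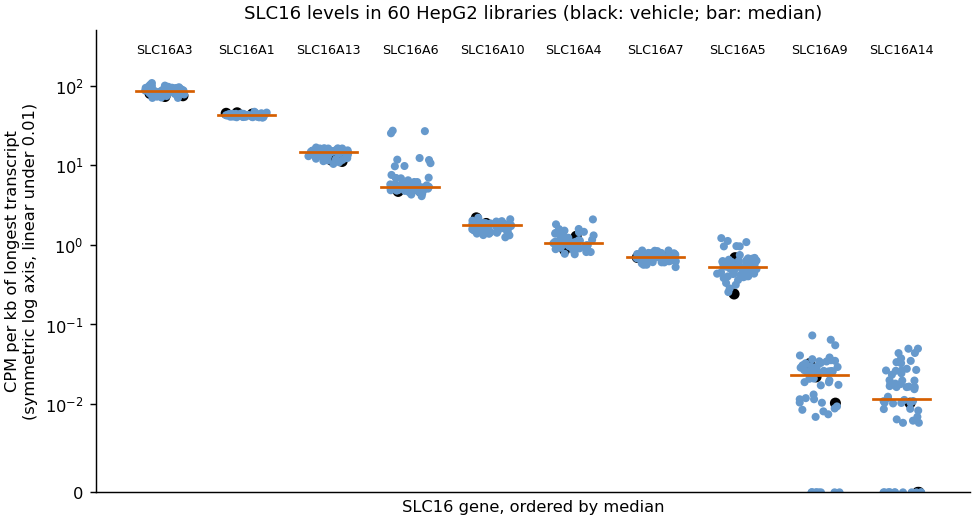
Level of each of the 10 members in 60 libraries, as CPM per kilobase of the longest transcript on a symmetric log axis; black points are vehicle and bars are medians. SLC16A3 and SLC16A1 lie at the top with medians of 85.1 and 42.4, and SLC16A9 and SLC16A14 lie near 0.

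SLC16A3 and SLC16A1 are the main proton-linked lactate carriers of these cells by RNA level. SLC16A3 lies on chromosome 17 from 82228397 to 82261129 on the plus strand of GRCh38, and SLC16A1 on chromosome 1 from 112911847 to 112957013 on the minus strand; both are annotated as protein coding. SLC16A3 is widely described as a target of the hypoxia-inducible factors, and ACGTG is 1 form of the core they bind. A stretch upstream of 1 of its annotated starts is shown for that reason, with each ACGTG, read on either strand, in capitals. It was taken from the RefSeq promoter table (GRCh38.p14), spans chr17:82228792-82229031 on the plus strand, holds only bases outside annotated exons and ends 10 bases before the start of the transcript.
SLC16A3: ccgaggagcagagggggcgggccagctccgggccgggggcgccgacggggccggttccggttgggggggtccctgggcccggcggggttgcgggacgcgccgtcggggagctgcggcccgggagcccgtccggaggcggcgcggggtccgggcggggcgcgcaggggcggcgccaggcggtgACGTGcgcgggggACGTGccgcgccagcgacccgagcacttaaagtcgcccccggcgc
It has 2 such cores, and it was chosen because it holds them: the windows at 2 other SLC16A3 starts, chr17:82228185-82228396 and chr17:82231982-82232231, hold 0. The motif occurs in 18.0% of the 35116 promoter windows of the table at the same length of 240 bases, so a match alone is common. These windows, like those used for the sequences below, end at the start and were not cleared of exon bases. A match is a description of letters and not evidence of binding.

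With Banhasasim-tang, SLC16A3 measured 469.6, 497 and 524 CPM at 500 µg/mL and 426, 457 and 390.5 CPM at 20 µg/mL. Every library at the high dose lay above every library at the low dose. The log2 fold change was 0.23 ± 0.06 (SE; adjusted p = 0.00475). It missed the threshold without the third library at 500 µg/mL (0.18, adjusted p = 0.0708) or without the third at 20 µg/mL (0.17, adjusted p = 0.0784). With Cimicifugae the libraries lay at 341, 358 and 341 CPM against 360.2, 401 and 383 CPM, a difference of -0.14 (adjusted p = 0.0548), and with Aconiti at 423, 453 and 455 against 369.9, 410.4 and 417 CPM, a difference of 0.15 (adjusted p = 0.0523). In both the groups did not overlap, and the difference missed the threshold in the fit reported here but passed in others. With Cimicifugae it passed in DESeq2 (0.044), under median-ratio size factors (0.0493), without a filter (0.00954), with replicate numbers as a block (0.0223), with the GC trend removed (0.011) and in a fit of both groups alone (0.0121). With Aconiti it passed in DESeq2 (0.0495), without a filter (0.0237), with a filter at a mean CPM of 1 (0.045), with the block (0.019), with the GC trend removed (0.0135) and in a fit of both groups alone (0.0336). It also passed without the first Cimicifugae library at 20 µg/mL (-0.18, adjusted p = 0.0303) or the second at 500 µg/mL (-0.17, 0.0473), and without the first Aconiti library at 500 µg/mL (0.19, 0.0288) or the third at 20 µg/mL (0.18, 0.0359). At 100 against 20 µg/mL, SLC16A3 rose with Aconiti, from 399 ± 25.6 to 466 ± 15.6 CPM (SD, n = 3; log2 fold change 0.22, adjusted p = 0.019). That call was lost without the first library at 20 µg/mL (0.17, adjusted p = 0.178), the second at 100 µg/mL (0.20, 0.0858) or the third at 100 µg/mL (0.21, 0.075).

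SLC16A1 was the steadiest tested member: its group means ranged over 0.16 on the log2 scale across the 19 replicated groups. With Banhasasim-tang it measured 198, 202 and 206 CPM at 500 µg/mL against 176, 182 and 186 CPM at 20 µg/mL. The groups did not overlap and the log2 fold change was 0.16 ± 0.037 (SE; adjusted p = 0.00164). In the other 5 extracts its difference lay between -0.04 and 0.09, with no pass. The antisense gene SLC16A1-AS1 measured 7.47 to 12.2 CPM, and the labels do not say whether counting used strand, so reads of the pair may be shared. The pseudogene SLC16A1P1 had at most 0.148 CPM.

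SLC16A7, the high-affinity carrier of the same group, lies on chromosome 12 from 59596067 to 59789855 on the plus strand. With Cimicifugae it measured 6.90, 6.63 and 7.54 CPM at 500 µg/mL and 9.02, 9.84 and 8.66 CPM at 20 µg/mL. It fell by 0.39 on the log2 scale (SE 0.10, adjusted p = 0.00192), with no overlap between the doses. With the other 5 extracts it lay between -0.22 and 0.13 and did not pass.

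SLC16A6, on the minus strand of chromosome 17 from 68267026 to 68291267, had the widest range of the tested members, 2.56 on the log2 scale between its highest and lowest group means. With Aconiti it measured 23.5, 22.1 and 23.5 CPM at 20 µg/mL, 47.1, 44.4 and 44.9 CPM at 100 µg/mL and 103, 104 and 96.4 CPM at 500 µg/mL. The 3 doses were fully separate. The lowest dose also lay above the vehicle libraries (18.2, 19.9 and 17.9 CPM), as did Yijung-tang at 20 µg/mL. Set and treatment cannot be told apart in that comparison. The log2 fold change with Aconiti was 2.13 ± 0.064 (SE; adjusted p = 8.83e-31) at 500 against 20 µg/mL and 0.98 ± 0.066 (adjusted p = 5e-16) at 100 against 20 µg/mL. At 100 against 20 µg/mL SLC16A6 and SLC16A3 were the members that passed with Aconiti, 2 of 8 and both higher, where 5.68% of all genes passed (3.11% higher, 2.57% lower).

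With Cimicifugae the middle dose of SLC16A6 overlapped the low dose and the high dose stood above both. The libraries measured 40.6, 37.4 and 37.1 CPM at 500 µg/mL, 20.1, 18.4 and 18.8 CPM at 100 µg/mL and 19.9, 18.5 and 20.7 CPM at 20 µg/mL. The log2 fold change was 0.95 ± 0.07 (SE; adjusted p = 4.93e-16) at 500 against 20 µg/mL and -0.05 (adjusted p = 0.874) at 100 against 20 µg/mL, where 0 of 8 members passed and 1.29% of all genes did (0.758% higher, 0.528% lower). Banhasasim-tang gave 26.3, 28.9 and 26.7 CPM at 500 µg/mL against 20.0, 18.7 and 20.6 CPM at 20 µg/mL, a log2 fold change of 0.47 ± 0.069 (adjusted p = 9.05e-07). Both extracts show a high group fully above its low group.

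With Yijung-tang the middle dose was the highest. SLC16A6 measured 26.3, 26.2 and 24.7 CPM at 100 µg/mL, 20.4, 22.0 and 20.4 CPM at 20 µg/mL and 19.5, 17.6 and 20.5 CPM at 500 µg/mL. It rose by 0.29 (log2, adjusted p = 0.015) at 100 against 20 µg/mL, the only member of 8 to pass there (1.24% of all genes did, 0.708% higher and 0.534% lower), and differed by -0.13 (adjusted p = 0.405) at 500 against 20 µg/mL. The rise at 100 µg/mL was lost in a fit of those groups alone (adjusted p = 0.0593), and without either the first or the second library at 100 µg/mL (0.0931 and 0.0576) or the first or the third at 20 µg/mL (0.101 and 0.0573). With Citri (0.05) and Bupleuri (0.04) the doses did not differ by the test, with intervals of -0.10 to 0.20 and -0.11 to 0.18.

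**Figure D3:**
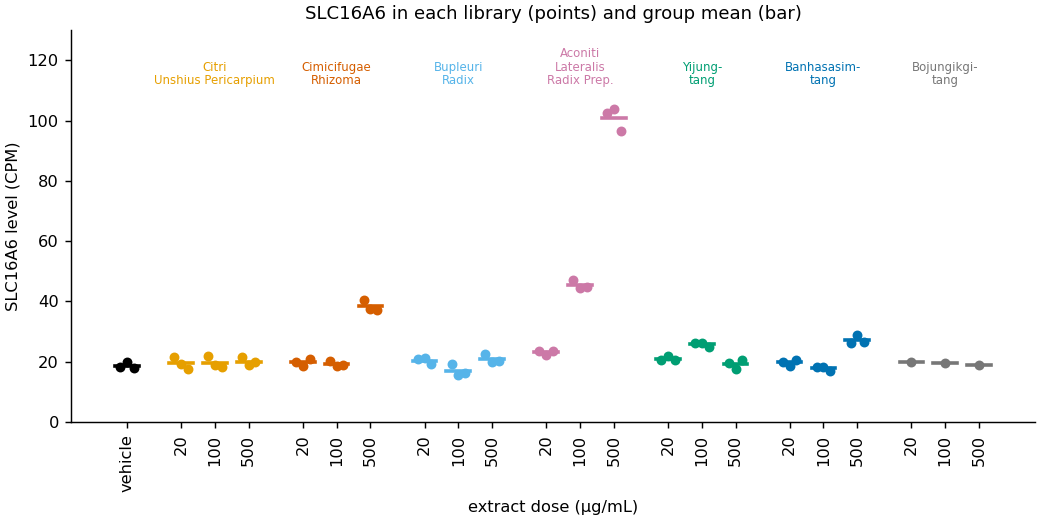
SLC16A6 level (CPM, axis from 0) in every library by extract and dose; points are libraries and bars are group means. The Aconiti libraries climb from between 22.1 and 23.5 CPM to between 96.4 and 104 CPM, Cimicifugae stands out at 500 µg/mL, and Yijung-tang is highest at 100 µg/mL.

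Ordered by group mean, SLC16A6 was highest with Aconiti at 500 µg/mL (101 CPM), then with Aconiti at 100 (45.5), Cimicifugae at 500 (38.3), Banhasasim-tang at 500 (27.3) and Yijung-tang at 100 µg/mL (25.7). Of these neighbours only Banhasasim-tang at 500 and Yijung-tang at 100 µg/mL overlapped in their libraries. From Yijung-tang at 20 µg/mL (20.9 CPM) down to Bupleuri at 100 µg/mL (17.0 CPM), each group overlapped the next, vehicle (18.7 CPM) included. The pseudogene SLC16A6P1 measured 0.248 to 1.31 CPM, so reads shared with it could be a small part of the SLC16A6 level.

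Other measures also changed with dose. The share of counts on the mitochondrial ribosomal RNAs was 3.2% with Aconiti at 20 µg/mL, 8.58% at 100 µg/mL and 12.5% at 500 µg/mL, against 2.41% in vehicle and at most 4.3% in every other replicated group. From 20 to 500 µg/mL it went from 3.22% to 4.3% with Bupleuri, where SLC16A6 did not pass. With Cimicifugae, where SLC16A6 passed, it went from 3.41% to 4.07%. With the mitochondrial genes left out, SLC16A6 rose by 2.12 from 20 to 500 µg/mL of Aconiti. LYZ, the abundant leukocyte marker, rose with Cimicifugae (1.31), Bupleuri (0.89), Aconiti (0.90) and Banhasasim-tang (0.59), while PTPRC and CD3E had at most 1 count in all of those libraries. FGB, 1 of the 8 HepG2 markers, fell with Aconiti by 1.03 on the log2 scale. It does not stand for the list: the 8 markers summed to group means between 34930 and 41390 CPM over all groups. In bulk RNA, fewer cells of a type and less RNA per cell cannot be told apart. The fit without mitochondrial genes only took their counts out before scaling and does not test this. The part of these measures in the SLC16A6 values was not tested.

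SLC16A10, the aromatic amino acid carrier, lies on chromosome 6 from 111087503 to 111231194 on the plus strand. Its upstream stretch, chr6:111087253-111087502 in GRCh38.p14, is shown because the gene fell with 3 extracts, and it ends at the annotated start of the gene. The RefSeq promoter windows had no entry for 4 members (SLC16A1, SLC16A5, SLC16A6 and SLC16A13), so none of theirs could be shown. Capitals mark ACGTG, 1 form of the hypoxia core, and GCGTG, a core bound by the aryl hydrocarbon receptor though not by it alone. Here both are read on the opposite strand as CACGT and CACGC.
SLC16A10: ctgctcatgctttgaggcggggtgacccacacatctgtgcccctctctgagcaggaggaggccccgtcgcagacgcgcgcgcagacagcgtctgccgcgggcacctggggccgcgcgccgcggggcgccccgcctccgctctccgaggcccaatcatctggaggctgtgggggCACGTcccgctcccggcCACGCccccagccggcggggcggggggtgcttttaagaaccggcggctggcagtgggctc
It has 1 of each, which 18.5% (ACGTG) and 32.2% (GCGTG) of promoter windows of 250 bases also hold.

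With Cimicifugae SLC16A10 measured 13.4, 13.9 and 14.8 CPM at 500 µg/mL and 20.0, 18.1 and 18.7 CPM at 20 µg/mL. With Aconiti the values were 12.5, 14.0 and 13.3 CPM against 17.4, 16.4 and 18.2 CPM. In both extracts every library at the high dose lay under every library at the low dose. SLC16A10 fell by 0.44 with Cimicifugae (SE 0.086, adjusted p = 3.4e-05) and by 0.40 with Aconiti (SE 0.085, adjusted p = 0.000152). With Bupleuri it fell by 0.27 (adjusted p = 0.0141), from 18.8 ± 0.455 to 15.7 ± 1.41 CPM (SD, n = 3), also without overlap. The Bupleuri call was lost without the first (adjusted p = 0.0608) or the third library (0.0969) at 500 µg/mL, or without the third at 20 µg/mL (0.0517). Values with Citri, Yijung-tang and Banhasasim-tang were -0.08, 0.06 and -0.13.

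SLC16A4 and SLC16A5, the tested members lowest in CPM before scaling by length, showed the next largest rises. SLC16A4 lies on chromosome 1 from 110362848 to 110391082 on the minus strand. Its upstream stretch, chr1:110391083-110391276, read along the minus strand in GRCh38.p14, is printed to compare with the sequences above. It holds neither motif, as do most windows of 194 bases (15.3% have ACGTG and 27.6% GCGTG). The stretch ends 56 bases before the RefSeq start, while those windows end at it.
SLC16A4: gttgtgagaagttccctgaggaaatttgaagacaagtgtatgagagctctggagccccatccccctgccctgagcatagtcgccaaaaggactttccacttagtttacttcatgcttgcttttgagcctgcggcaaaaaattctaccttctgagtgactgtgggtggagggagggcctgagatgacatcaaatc
With Cimicifugae SLC16A4 measured 5.51, 4.17 and 4.78 CPM at 500 µg/mL (80 to 115 counts) against 2.60, 2.86 and 2.65 CPM at 20 µg/mL (64 counts in each). With Aconiti it measured 3.24, 3.98 and 3.84 CPM against 2.38, 2.14 and 2.60 CPM. The high and low doses did not overlap in either, and the log2 fold changes were 0.83 ± 0.15 (SE; adjusted p = 6.16e-06) and 0.62 ± 0.15 (adjusted p = 0.000687).

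The smaller SLC16A4 changes were less firm. With Bupleuri it rose by 0.45 (adjusted p = 0.0199), a call lost in a fit of the compared groups alone (0.0728), without a filter on low counts (0.0543), or without the first (0.159) or second (0.0567) library at 500 µg/mL or the third at 20 µg/mL (0.143). With Yijung-tang it fell by 0.55 (adjusted p = 0.021), from 3.80, 2.87 and 3.23 CPM at 20 µg/mL to 2.58, 2.01 and 2.14 CPM at 500 µg/mL. That call was lost in the fit of those groups alone (adjusted p = 0.215), without the first (0.218) or the third (0.0524) library at 20 µg/mL, or without the second (0.135) or the third (0.0621) at 500 µg/mL. With Banhasasim-tang the difference was 0.35 (adjusted p = 0.103), which passed without the third library at 20 µg/mL (0.48, 0.0489). The antisense gene SLC16A4-AS1 measured 5.15 to 11.9 CPM, more than SLC16A4 itself, and shared reads cannot be told apart here.

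SLC16A5, on the plus strand of chromosome 17 from 75087727 to 75106162, had 11 to 57 counts per library. It measured 2.30, 1.98 and 2.50 CPM with Cimicifugae at 500 µg/mL against 1.3, 0.805 and 1.28 CPM at 20 µg/mL, and 2.22, 1.97 and 1.97 CPM against 0.997, 1.11 and 0.892 CPM with Aconiti. The doses did not overlap with either extract. SLC16A5 rose by 0.98 ± 0.22 (log2 and SE; adjusted p = 0.00028) and 1.03 ± 0.22 (adjusted p = 0.000144). At 100 µg/mL its means were 1.09 and 1.21 CPM with these extracts, and neither passed against 20 µg/mL.

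SLC16A13 lies on the plus strand of chromosome 17 from 7036075 to 7040121. With Bupleuri it measured 20.2, 19.1 and 20.5 CPM at 500 µg/mL against 25.9, 26.8 and 28.6 CPM at 20 µg/mL, and with Banhasasim-tang 18.2, 21.2 and 19.8 CPM against 26.4, 25.7 and 22.8 CPM. The high dose lay fully under the low dose in both. It fell by 0.44 (SE 0.079, adjusted p = 2.11e-05) and by 0.34 (SE 0.078, adjusted p = 0.0016). With Aconiti it fell by 0.25 (adjusted p = 0.00925), from 27.0 ± 1.93 to 22.7 ± 1.29 CPM, and missed the threshold without the first library at 20 µg/mL (0.0537) or the second at 500 µg/mL (0.0555). With Cimicifugae the difference was -0.15 (adjusted p = 0.15), which passed without the first library at 500 µg/mL (-0.24, 0.0307). At 100 µg/mL SLC16A13 stood at 26.2 CPM with Bupleuri, 25.9 with Banhasasim-tang and 27.1 with Aconiti, near the low dose, and no comparison of 100 with 20 µg/mL passed. In Citri, Bupleuri and Banhasasim-tang 0 of 8 members passed between those doses (0.0249%, 0.162% and 0.0124% of all genes). With Bupleuri 0.0684% of all genes were higher there and 0.0932% lower.

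**Figure D4:**
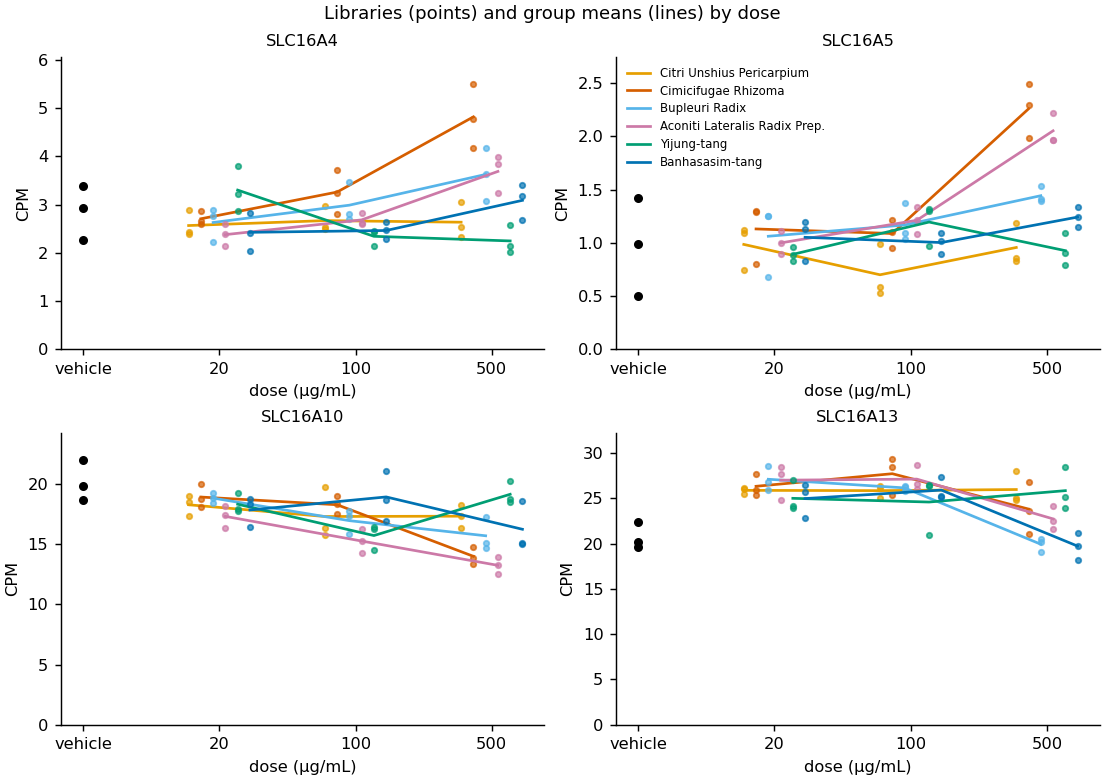
CPM of SLC16A4, SLC16A5, SLC16A10 and SLC16A13 by dose for 6 extracts, with vehicle at the left; points are libraries and lines join group means. SLC16A4 and SLC16A5 are highest with Cimicifugae at 500 µg/mL (4.82 and 2.26 CPM on average), SLC16A10 is lowest with Aconiti at 500 µg/mL (13.3 CPM), and SLC16A13 stands at 26.2 CPM at 100 µg/mL of Bupleuri and 19.9 CPM at 500 µg/mL.

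Extracts that share a set were compared directly at 500 µg/mL, and the difference between their dose effects was tested as an interaction. Cimicifugae had higher SLC16A4 (0.86), SLC16A5 (1.24) and SLC16A6 (0.93), and lower SLC16A3 (-0.26), SLC16A10 (-0.31) and SLC16A1 (-0.10), than Citri; 6 of 8 members passed, and 41.8% of all genes did. The SLC16A1 difference (adjusted p = 0.0336) was lost without the first (0.183) or second (0.0657) Citri library, without the second (0.193) or the third (0.0632) Cimicifugae library, in a fit of both groups alone (0.0961) and without a filter (0.14). The dose effects of these 2 extracts differed for 5 members (28.2% of all genes): SLC16A3, SLC16A4, SLC16A5, SLC16A6 and SLC16A10. For SLC16A6 the difference was 0.91 ± 0.10 (SE; adjusted p = 7.78e-10), and for SLC16A4 0.79 ± 0.22 (adjusted p = 0.00388).

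The other calls of that pair changed when single libraries were left out. The SLC16A3 difference (-0.24, adjusted p = 0.0265) was lost without the first Citri library at 20 µg/mL (0.156), the second (0.0589) or the third (0.0813) Citri library at 500 µg/mL, the first (0.0637) or the third (0.0596) Cimicifugae library at 500 µg/mL, or the second at 20 µg/mL (0.0946). The SLC16A5 difference (1.04, adjusted p = 0.0171) was lost without the second (0.0543) or the third (0.0549) Citri library or the second Cimicifugae library (0.0632) at 20 µg/mL. The SLC16A10 difference (adjusted p = 0.0172) was lost without the first Cimicifugae library at 500 µg/mL (0.0541) or 20 µg/mL (0.0555), or the second Citri library at 500 µg/mL (0.0528) or 20 µg/mL (0.0507). SLC16A1 (-0.13, adjusted p = 0.0652) passed without the first Citri library at 20 µg/mL (0.0371) or the third at 500 µg/mL (0.034), and without the first Cimicifugae library at 500 µg/mL (0.0374) or the third at 20 µg/mL (0.0492). It passed as well in DESeq2 (0.0435) and with the GC trend removed (-0.16, 0.00514).

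Aconiti had much higher SLC16A6 than Bupleuri at 500 µg/mL, at 101 ± 4.00 against 20.9 ± 1.37 CPM (SD, n = 3; log2 difference 2.27, adjusted p = 1.93e-31). SLC16A3 (0.20) and SLC16A7 (0.37) were also higher and SLC16A10 (-0.25) lower, so 4 of 8 members passed beside 23.5% of all genes. SLC16A3 was lost when any of 4 libraries was left out (the first or second of Bupleuri, the second or the third of Aconiti; adjusted p 0.0509 to 0.0544), and SLC16A7 without the third Bupleuri library (0.25, adjusted p = 0.0824). SLC16A10 was lost without the first (0.148) or the third (0.0649) Aconiti library or the second of Bupleuri (0.222). The dose effects of this pair differed for SLC16A6 alone (2.09 ± 0.096, adjusted p = 2.13e-22; 10.2% of all genes), and for SLC16A5 the difference was 0.62 with an interval of -0.02 to 1.25.

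Banhasasim-tang against Yijung-tang at 500 µg/mL gave higher SLC16A4 (0.46) and SLC16A6 (0.51) and lower SLC16A10 (-0.24) and SLC16A13 (-0.39), 4 of 8 members beside 14.9% of all genes. SLC16A4 (adjusted p = 0.0279) was lost in a fit of the pair alone (0.104), in DESeq2 (0.057), without a filter (0.0815), and without the first (0.0806) or the third (0.162) Banhasasim-tang library or the second (0.121) or the third (0.0901) of Yijung-tang. SLC16A10 (adjusted p = 0.0348) was lost in a fit of the pair alone (0.127), and without the first (0.179) or the third (0.195) Banhasasim-tang library or the first (0.0504) or the third (0.156) of Yijung-tang. The dose effects differed for SLC16A4 (0.91), SLC16A6 (0.60) and SLC16A13 (-0.38), 3 of 8 members beside 12.1% of all genes. SLC16A13 (adjusted p = 0.0136) was lost in a fit of these 4 groups alone (0.059), without the first Yijung-tang library at 500 µg/mL (0.0673) or the first Banhasasim-tang library at that dose (0.0552).

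Against vehicle at 500 µg/mL, SLC16A6 was higher with Aconiti (2.43), Cimicifugae (1.04) and Banhasasim-tang (0.55) and SLC16A10 lower with every extract but Yijung-tang (-0.61 to -0.22, and -0.07 with Yijung-tang). With Citri 2 of 8 members were higher and 1 lower, beside 22.5% of all genes (12.7% higher, 9.78% lower), and with Cimicifugae 4 and 2, beside 45.8% (23.5% higher, 22.3% lower). With Bupleuri 0 were higher and 1 lower, beside 35.7% of all genes (19% higher, 16.6% lower), and with Aconiti 4 and 2, beside 47.4% (24.5% higher, 22.9% lower). With Yijung-tang 2 were higher and 0 lower, beside 32.6% (17.5% higher, 15.1% lower), and with Banhasasim-tang 2 and 1, beside 34.7% (18.6% higher, 16.2% lower). Without vehicle replicate 2, the library with leukocyte transcripts, SLC16A6 was still higher with 3 extracts (0.09 to 2.48 over the 6) and SLC16A10 lower with 5, and SLC16A5 was higher with 4 extracts in place of 2. The SLC16A10 call with Citri (-0.22, adjusted p = 0.0464) was lost without vehicle replicate 1 (0.249) or 3 (0.0638), without the first (0.0824) or the third (0.163) Citri library, in DESeq2 (0.056) and with mitochondrial genes left out (0.056). SLC16A4 was higher with 2 extracts, and with 1, 1 and 3 without vehicle replicates 1, 2 and 3. These comparisons share the same 3 vehicle libraries, so their agreement across extracts is not independent.

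Vehicle and extract libraries also differed by the GC content of genes. At 500 µg/mL the fifth of genes lowest in GC had medians of -0.14 to -0.09 against vehicle and the fifth highest in GC 0.20 to 0.29. SLC16A13 (62.0% GC) and SLC16A3 (62.7%) are among the GC-rich genes, and SLC16A10 (37.6%) and SLC16A6 (39.9%) among the GC-poor. SLC16A13 was higher than vehicle with all 6 extracts at 20 µg/mL (0.27 to 0.39) and at 100 µg/mL (0.25 to 0.42), where 10.7% to 16.8% and 12.4% to 19.6% of all genes were called higher, and with 3 at 500 µg/mL. Without vehicle replicate 2 these counts were 4, 5 and 2. With the GC trend removed it was higher in 0 of these 18 comparisons and lower in 2 at 500 µg/mL. The fifth of genes highest in GC then had medians of -0.0127 to 0.0244 at 500 µg/mL, so nothing particular to SLC16A13 is read from the loss. The share of all genes that passed was not counted in fits with the trend removed or without a vehicle library. Counts of members in those fits therefore have no scale beside them.

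SLC16A3 was higher than vehicle with 4 extracts at 500 µg/mL (-0.09 to 0.44 over the 6). With the GC trend removed it was higher with 1 and lower with 2, and without vehicle replicate 2 it was higher with 3. SLC16A10 was lower with 5 extracts as counted and with 3 after the GC trend was removed (Cimicifugae -0.44, Bupleuri -0.27 and Aconiti -0.51). SLC16A6 was higher with 3 as counted and with 4 after the trend was removed, when Bupleuri (0.25) was added. SLC16A7, the member poorest in GC (33.3%), passed with 0 extracts as counted and was higher with Aconiti (0.33, adjusted p = 0.00188) and Yijung-tang (0.30, adjusted p = 0.0165) after the trend was removed. SLC16A1 was lower than vehicle with 4 extracts at 20 µg/mL, 3 at 100 µg/mL and 2 at 500 µg/mL. Of all genes 8.26% to 14.4%, 9.61% to 17.9% and 9.78% to 22.9% were called lower there. Without vehicle replicate 2 these counts were 1, 3 and 1. With the GC trend removed they were 0, 0 and 1, and SLC16A1 was higher with 1 extract at 500 µg/mL.

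**Figure D5:**
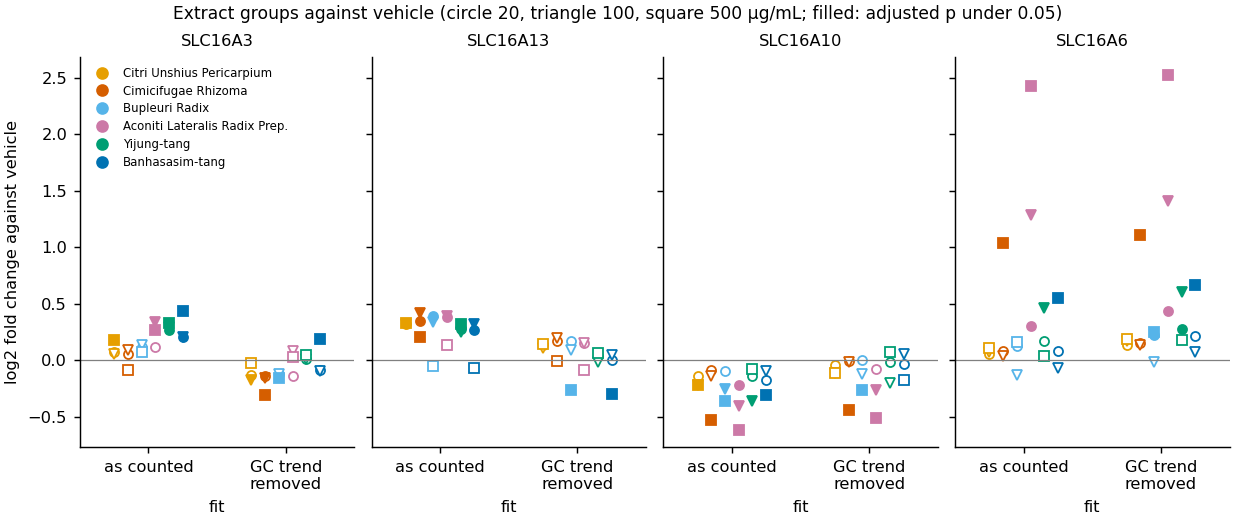
Log2 fold change against vehicle of SLC16A3, SLC16A13, SLC16A10 and SLC16A6 in 18 groups, as counted and with the trend by GC content removed; colour is extract, shape is dose and filled points passed. SLC16A13 at 20 and 100 µg/mL has no filled point once the trend is removed, while SLC16A6 with Aconiti at 500 µg/mL stands at 2.43 as counted and 2.53 with the trend removed.

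Genes that work with these carriers were counted in the comparison of 500 with 20 µg/mL from lists by function. BSG, the partner protein of SLC16A1 and SLC16A3, measured 410.1 to 538 CPM and passed with 0 of 6 extracts (-0.04 to 0.05). EMB had at most 3 counts in any library but vehicle replicate 2 (36) and was not tested. The mitochondrial pyruvate carrier subunits fell together with Cimicifugae (MPC1 -0.30, MPC2 -0.32) and Aconiti (-0.59 and -0.44). MPC2 also fell with Bupleuri (-0.20) and MPC1 with Banhasasim-tang (-0.20). SLC5A8 and SLC5A12, sodium-linked lactate carriers, had at most 1 count.

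Of 13 tested enzymes of lactate and pyruvate (15 listed), 4 rose and 4 fell with Cimicifugae, 5 rose and 2 fell with Bupleuri, 5 rose and 4 fell with Aconiti, and 3 rose and 2 fell with Banhasasim-tang. With Yijung-tang 1 rose and 1 fell, and with Citri 0 passed. Over all genes tested, 39.2% passed with Cimicifugae, 18.8% with Bupleuri, 37.2% with Aconiti, 15.1% with Banhasasim-tang, 3.77% with Yijung-tang and 1.65% with Citri, and these shares apply to every list below. LDHA, which makes lactate from pyruvate, rose with Cimicifugae (0.18), Bupleuri (0.36), Aconiti (0.40) and Banhasasim-tang (0.50), and PKM, the last step of glycolysis, rose with the same 4 extracts (0.34, 0.36, 0.54 and 0.43). LDHD, which oxidises D-lactate in mitochondria, fell with those 4 (-0.34, -0.36, -0.66 and -0.37). PDP1, a phosphatase that activates pyruvate dehydrogenase, rose with Cimicifugae (0.48), Bupleuri (0.27) and Aconiti (0.49) and fell with Yijung-tang (-0.42). The list's median lay between -0.03 and 0.07 in the 6 comparisons.

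All 7 ketone body enzymes were tested, and between 0 and 2 rose and between 0 and 2 fell per extract. BDH1, which interconverts the ketone bodies, rose with 5 extracts, from 0.30 with Banhasasim-tang to 0.77 with Cimicifugae, and stood at 0.16 with Citri (adjusted p = 0.301). BDH2 fell with Bupleuri (-0.33), Aconiti (-0.47) and Banhasasim-tang (-0.26) and rose with Yijung-tang (0.26). AACS, which activates acetoacetate in the cytosol, rose with Aconiti (0.12) and Banhasasim-tang (0.17).

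For aromatic amino acids and thyroid hormone, 13 of 14 listed genes were tested. With Cimicifugae 6 rose and 5 fell, with Aconiti 6 rose and 4 fell, and with Bupleuri and Banhasasim-tang 2 rose and 4 fell, beside 39.2%, 37.2%, 18.8% and 15.1% of all genes. SLC43A2, another carrier of large neutral amino acids, rose with Cimicifugae (1.33), Aconiti (1.03), Bupleuri (0.83) and Banhasasim-tang (0.52). DIO1, which activates and clears thyroid hormone, fell with Aconiti (-1.30), Cimicifugae (-0.97), Bupleuri (-0.59) and Banhasasim-tang (-0.41) and rose with Yijung-tang (0.32). THRB, a thyroid hormone receptor, fell with Aconiti, Cimicifugae, Bupleuri and Banhasasim-tang by 0.21 to 0.63 on the log2 scale.

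Of 11 tested genes of carnitine and creatine handling (12 listed), CPT1A, the gate of fatty acid entry into mitochondria, rose with 5 extracts: Cimicifugae (1.01), Aconiti (0.79), Bupleuri (0.60), Banhasasim-tang (0.48) and Citri (0.25). SLC6A8, the creatine carrier, rose with Bupleuri, Aconiti and Banhasasim-tang (0.20, 0.33 and 0.58) and fell with Cimicifugae (-0.20). GAMT, which makes creatine, fell with Cimicifugae, Aconiti and Banhasasim-tang (-0.43, -0.47 and -0.26). Among 6 factors known to act on SLC16 genes, PPARGC1A rose with 5 extracts (0.22 to 0.67), HIF1A with Cimicifugae (0.29), Bupleuri (0.18) and Aconiti (0.11), and MYC with Cimicifugae, Aconiti and Yijung-tang (0.26, 0.36 and 0.20). EPAS1 fell with Cimicifugae (-0.36) and Bupleuri (-0.27) and rose with Banhasasim-tang (0.16).

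The members also differed among themselves in how they followed the 19 groups. Across group means the level of SLC16A6 correlated with SLC16A10 at r = -0.83 and with SLC16A5 at 0.73, and SLC16A4 with SLC16A5 at 0.73. SLC16A1 and SLC16A3 correlated at 0.35. The SLC16A6 group means were 101, 45.5 and 38.3 CPM with Aconiti at 500, Aconiti at 100 and Cimicifugae at 500 µg/mL. In every other group they were at most 27.3 CPM. These few groups can set much of its r values, and r without them was not computed. The points share libraries and sets, so these are descriptions with no p. Among 10182 genes the patterns most like SLC16A6 over the 19 groups were those of JAG1 (r = 0.97), LRP8 (0.96) and STC2 (0.96). For SLC16A10 they were GIPC2 (0.96), SESN1 (0.95) and RMI2 (0.93), and for SLC16A3 RNF166 (0.94), DNM2 (0.92) and SLC5A6 (0.91). All these r values include the vehicle group and were taken without removing the GC trend. The part of GC content or set in them was not tested.

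Bojungikgi-tang had 1 library per dose and no test. Its SLC16A6 levels were 19.8, 19.4 and 18.9 CPM at 20, 100 and 500 µg/mL, within the range of the vehicle libraries. SLC16A3 stood at 388, 447 and 405 CPM at those doses, with exact 95% Poisson intervals of 381 to 396, 439 to 455 and 397 to 413 CPM that cover counting error only. SLC16A9 and SLC16A14, low everywhere, had 0 to 3 counts in these libraries.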

How the data were processed

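Messenger RNA of HepG2 cells was sequenced as 100-base paired reads from a directional kit, per the labels' protocols. The expected counts per gene deposited by the authors come from reads checked with FastQC 0.11.9, trimmed with Trim Galore 0.6.5, aligned with STAR 2.7.3a and quantified with RSEM 1.3.3 on GRCh38, per the submitters' processing notes. The annotation release and the use of strand in counting are not given in the sources used here. The table names genes by Ensembl ID, of which 57055 matched GENCODE 29 (the rest hold 0.0398% of counts). A further 207 columns belong to no sample analysed here and were not used, and the wortmannin control was not analysed here. Of nonzero values 24.5% were not whole, so counts were rounded.

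Library totals were 17598646 to 30451640, and for a gene at 11 counts counting error is large. Counts of 57 libraries in 19 groups of 3 were fitted together with edgeR 4.0.16 (R 4.3.3, limma 3.58.1) by quasi-likelihood, with TMM factors of 0.898 to 1.04, after the default filter on low counts (16093 genes). P-values were adjusted by Benjamini-Hochberg over all genes in each comparison. CPM used TMM-scaled totals, and CPM per kb divided by the longest transcript. The test was checked on simulated data. Samples were grouped by dose and extract in the labels. Replicate numbers were not used as a block, since over all genes libraries of 1 number deviated together only slightly on average. Single genes can differ from that average, as given below for SLC16A3. Alternatives were another normalization, other filters, DESeq2 1.42.0, a replicate block, removal of the GC trend, separate fits, each library left out and, chosen after seeing the data, mitochondrial genes left out. All 10 members are named. From each list up to 4 genes that passed at 500 against 20 µg/mL are named, those that passed with most extracts first, and 3 genes are named for likeness to each of the 3 members of at least 5 CPM with the widest group range. The members and lists were chosen with earlier results of these data known. Bojungikgi-tang was left out of the fit for want of replicates. Results for some listed genes are not reported here.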

Additional observations from a re-analysis of the deposited data

Results flagged for a closer look

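For 9 results the dose effect (500 against 20 µg/mL) differed between 2 extracts of the same set by a test of that difference. Between Cimicifugae and Citri these were SLC16A3 (-0.24), SLC16A4 (0.79), SLC16A5 (1.04), SLC16A6 (0.91) and SLC16A10 (-0.36). Between Aconiti and Bupleuri it was SLC16A6 (2.09). Between Banhasasim-tang and Yijung-tang they were SLC16A4 (0.91), SLC16A6 (0.60) and SLC16A13 (-0.38). All are on the log2 scale from edgeR's quasi-likelihood test, with adjusted p from 2.13e-22 to 0.0265.

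Bojungikgi-tang, which enters no comparison, had SLC16A3 at 405 CPM at 500 µg/mL and 447 CPM at 100 µg/mL, above the highest vehicle library (388 CPM). Each is 1 library, and the difference was not tested. SLC16A3 is GC-rich, and the part of the GC difference from vehicle in these values was not tested either. SLC16A1 stood at 189, 185 and 190 CPM at 20, 100 and 500 µg/mL, under the lowest vehicle library (193 CPM). Its Poisson interval lay wholly under that library at 100 µg/mL only.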

How the results depend on the processing

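Of 24 counts of members called, all 24 stayed within 1.5 times under DESeq2 and without a filter. In a fit of only the groups compared, the counts with Yijung-tang were 0 at 500 against 20 µg/mL (SLC16A4 lost) and 0 at 100 against 20 µg/mL (SLC16A6 lost), and Banhasasim-tang against Yijung-tang gave 2 (SLC16A4 and SLC16A10 lost). With the GC trend removed, the counts against vehicle at 500 µg/mL were 0 with Citri, 5 with Bupleuri and 1 with Yijung-tang (SLC16A7 added, SLC16A3 and SLC16A13 lost), and SLC16A3 changed sign with Citri (-0.0219) and Bupleuri (-0.16) and SLC16A13 with Cimicifugae (-0.0039); the cause was not tested. Bupleuri against vehicle gave 2 in place of 1 under median-ratio size factors, a mean CPM of 1 or more, or with mitochondrial genes left out (SLC16A5 added). Of single fold changes under these settings and with each library left out, 43 became called, 102 lost their call and 3 changed sign while called in either fit. In the other 2684 the call did not change, and sign changes of uncalled values are among them.

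Leaving out each library in turn gave, at 500 against 20 µg/mL, 0 to 0 members with Citri, 5 to 6 with Cimicifugae, 1 to 3 with Bupleuri, 4 to 6 with Aconiti, 0 to 1 with Yijung-tang and 3 to 4 with Banhasasim-tang. At 100 against 20 µg/mL it gave 1 to 2 with Aconiti, 0 to 1 with Yijung-tang and 0 with the rest. Against vehicle it gave 1 to 2 with Citri, 4 to 6 with Cimicifugae, 1 to 2 with Bupleuri, 4 to 6 with Aconiti, 2 to 3 with Yijung-tang and 3 to 4 with Banhasasim-tang. Between extracts at 500 µg/mL it gave 5 to 6 (Cimicifugae and Citri), 2 to 3 (Aconiti and Bupleuri) and 2 to 4 (Banhasasim-tang and Yijung-tang), and for differences of dose effects 3 to 6, 1 to 1 and 2 to 3.

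Over all genes, deviations of libraries of 1 number in groups of 1 set correlated at 0.033 on average, against -0.016 for other numbers. Single pairs lay between -0.096 and 0.206, with 12 of 135 over 0.1. For SLC16A3 the first library was the lowest at every dose of Citri, Bupleuri and Aconiti, so its calls with the block, given above, matter for that gene. With the replicate block the count with Bupleuri against vehicle was 2 (SLC16A6 added), and the other 23 counts stayed within 1.5 times. SLC16A5, at 11 to 57 counts, is limited by depth.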
